A study of Mus musculus with 9 samples.

Results

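Young red blood cells carry a large store of globin messenger RNA. The globin genes are therefore used to gauge how much blood RNA a tissue library holds. The 5 genes described here are Hba-a1 and Hba-a2, which encode the adult alpha globin chain of haemoglobin, Hbb-b1 and Hbb-b2, which encode the adult beta chains, and Alas2, which encodes the erythroid form of the first enzyme of haem synthesis. They were taken by gene symbol from a table of 33924 genes, and each symbol matched 1 row. All 5 passed the filter on low counts, which kept 17079 genes.

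The table holds RNA-seq read counts of 9 libraries of whole mouse thyroid tissue, flash frozen and extracted with TRIzol. There were 3 libraries with the genotype label Smarcb1 KO, 3 with the label Arid2 KO and 3 from wild-type mice. Smarcb1 and Arid2 encode subunits of the SWI/SNF chromatin remodelling complexes. The promoter or Cre line behind each knockout, whether the deletion is confined to 1 cell type, the animals' age and strain, and whether blood was flushed from the tissue are not given in the sources used here.

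Red blood cells form from erythroid precursors that make globin and haem together. Haemoglobin pairs alpha with beta chains, and Alas2 supplies the haem. The transcription factors Gata1 and Klf1 drive these genes in the precursors, and the young red cell still holds the messenger RNA after it has lost its nucleus. A thyroid is not a site of red cell formation, so in this tissue these transcripts are usually read as coming from blood in its vessels. In whole tissue, fewer cells of a type and less RNA per cell cannot be told apart.

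Total counts ran from 38644867 to 41362640 in the Smarcb1-labelled libraries, from 61179297 to 89553766 in the Arid2-labelled ones and from 33666251 to 34045321 in wild type. Tg, the thyroglobulin gene that marks thyroid follicular cells and is their defining marker, held 24.1% to 30.8% of the counts of each library. Levels below are TMM-scaled CPM, the usual depth-corrected unit for counts. Smarcb1 read 47.5, 53.7 and 59.4 CPM in the Smarcb1-labelled libraries, against 65.9, 71.7 and 69.3 CPM in wild type, a log2 fold change of -0.36 (edgeR adjusted p = 0.065). Arid2 read 94.6, 77.7 and 59.9 CPM in the Arid2-labelled libraries, against 68.8, 75.0 and 67.8 CPM in wild type, with an adjusted p of 0.745. Neither difference passed the test. The deleted part of each gene is not given, and a count over the whole gene need not show it, so these counts do not check the labels and the groups are named by them.

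Some libraries stand apart in what else they hold. Rag1, a gene of developing T cells in the thymus, was above 10 CPM in Smarcb1-labelled replicate 2 (52.6 CPM) and Arid2-labelled replicate 1 (502.0 CPM) while the remaining 7 libraries had at most 0.145 CPM. Pth, the parathyroid hormone gene, read 16750, 5892 and 9307 CPM in the Smarcb1-labelled libraries, 1532, 1436 and 0.129 CPM in the Arid2-labelled ones and 1199, 4172 and 0.0297 CPM in wild type. Xist read 808.9 CPM in Smarcb1-labelled replicate 3 and at most 2.6 CPM in the other 8 libraries.

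The 2 alpha globin counts cannot be read apart safely where the transcribed sequences match. The Hba-a1 and Hba-a2 promoter windows in RefSeq are identical over the 297 bases they share. Most of these lie before the start and are not part of the RNA. Their coding sequences of 426 bases in the GENCODE annotation of GRCm38 differ at 1 position, C381T, counted from the A of the start codon with the Hba-a1 base first. A read inside the coding sequence that misses that base matches both genes. The untranslated ends of the transcripts were not compared, so whether reads there tell the genes apart was not tested. The 29 bases around it are at chr11:32284329-32284357 for Hba-a1 and chr11:32297146-32297174 for Hba-a2, both on the plus strand of GRCm38, with the differing base in capitals:
Hba-a1: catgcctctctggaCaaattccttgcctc
Hba-a2: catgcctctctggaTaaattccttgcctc

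Promoters of 3 of the 5 genes were in the RefSeq table for GRCm38.p6, as windows of 250 bases before to 50 after the start. Each was searched on both strands for the GATA motif (AGATAA or AGATAG or TGATAA or TGATAG) that Gata1 recognises, and 29.8% of all 32851 windows in the table held it. The Hba-a1 window at chr11:32283422-32283721 held 1 match at base -183 from the start, and the Alas2 window at chrX:150547167-150547466 held 1 at base -86, with both windows on the plus strand and the match in capitals here. They are printed because Hba-a1 and Alas2 are the alpha globin and haem genes whose levels varied together across the 9 libraries (Pearson r = 0.82). The Hba-a2 window held the same letters as Hba-a1, at base -186. Hba-a2 had an r of -0.01 with Alas2, but its count is uncertain because the split of reads within the pair was not tested. A match is a string of letters, not a shown binding site:
Hba-a1: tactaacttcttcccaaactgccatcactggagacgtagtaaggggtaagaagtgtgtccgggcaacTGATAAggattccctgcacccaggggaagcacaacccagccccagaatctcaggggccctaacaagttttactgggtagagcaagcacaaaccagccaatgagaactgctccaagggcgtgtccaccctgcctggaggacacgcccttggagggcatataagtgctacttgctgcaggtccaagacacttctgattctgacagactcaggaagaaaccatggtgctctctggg
Alas2: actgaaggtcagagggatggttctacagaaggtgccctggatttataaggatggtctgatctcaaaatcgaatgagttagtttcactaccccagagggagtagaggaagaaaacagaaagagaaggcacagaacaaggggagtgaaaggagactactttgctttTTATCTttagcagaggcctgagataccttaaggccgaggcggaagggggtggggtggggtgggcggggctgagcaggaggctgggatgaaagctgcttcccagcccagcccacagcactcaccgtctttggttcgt

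The match in the Alas2 window lies on the opposite strand and is seen as its reverse complement. Beside it, the Hba-a1 window held the letters CACCC at 2 places, CCAAT at 1 and TATAA at 1, the last at base -27. The Alas2 window held CACCC on the opposite strand at 3 places, no CCAAT, and TATAA at base -207, overlapped by the same motif on the opposite strand at -208. Of all windows, 57.5% held CACCC, 37.4% held CCAAT and 24.9% held TATAA on 1 strand or the other.

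Alpha globin was lowest in the Smarcb1-labelled thyroids. Hba-a1 read 12.5, 30.5 and 10.1 CPM in the Smarcb1-labelled libraries, 83.7, 216.9 and 185.8 CPM in the Arid2-labelled ones and 471.2, 68.6 and 318.8 CPM in wild type. All 3 Smarcb1-labelled values lie below every other library, while wild-type replicate 2 is below all 3 Arid2-labelled libraries and the other two wild-type values are above them. The highest value, in wild-type replicate 1, was 46.6 times the lowest, in Smarcb1-labelled replicate 3, and by count the gene ranked 110 among all genes in the first of these libraries and 9609 in the second.

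Hba-a2 followed another pattern. It read 8.14, 5.34 and 5.93 CPM in the Smarcb1-labelled libraries, 0.077, 0.157 and 12.8 CPM in the Arid2-labelled ones and 0.243, 7.34 and 28.9 CPM in wild type. In Arid2-labelled replicates 1 and 2 and in wild-type replicate 1 it had only 7, 10 and 8 counts, although Hba-a1 had 7601, 13863 and 15534 counts there. The Smarcb1-labelled values lie close together and within the spread of both other groups. Across the 9 libraries the Pearson r of Hba-a2 with the other 4 genes ran from -0.25 to 0.04. How the reads of the near-identical pair were split was not tested, so both counts are uncertain and their sum is given as well. The summed alpha globin level was 20.6, 35.8 and 16.1 CPM in the Smarcb1-labelled libraries, 83.7, 217.1 and 198.5 CPM in the Arid2-labelled ones and 471.4, 76.0 and 347.7 CPM in wild type. The sum keeps the order of Hba-a1, with no overlap between the Smarcb1-labelled libraries and either other group.

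Beta globin showed a smaller gap. Hbb-b1 read 123.6, 143.3 and 77.4 CPM in the Smarcb1-labelled libraries, 159.3, 411.4 and 431.6 CPM in the Arid2-labelled ones and 863.7, 213.4 and 880.5 CPM in wild type. Again all 3 Smarcb1-labelled values are the lowest of the 9, with Arid2-labelled replicate 1 the next. Hbb-b2 read 26.5, 23.4 and 16.4 CPM in the Smarcb1-labelled libraries, 16.4, 43.5 and 45.5 CPM in the Arid2-labelled ones and 81.1, 11.2 and 86.7 CPM in wild type. Here wild-type replicate 2 is the lowest of all libraries and the groups overlap. The 2 beta genes are related in sequence, and how their shared reads were counted was not tested either. Their sum was 150.2, 166.7 and 93.7 CPM in the Smarcb1-labelled libraries, 175.7, 454.9 and 477.0 CPM in the Arid2-labelled ones and 944.8, 224.6 and 967.1 CPM in wild type, and the Smarcb1-labelled sums did not overlap those of either other group.

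Alas2 has no near-identical copy to share reads with among the 5 genes. It read 10.02, 10.5 and 6.69 CPM in the Smarcb1-labelled libraries, 7.34, 22.7 and 23.4 CPM in the Arid2-labelled ones and 59.1, 6.92 and 50.1 CPM in wild type. Wild-type replicates 1 and 3 are far above all other libraries, and wild-type replicate 2 and Arid2-labelled replicate 1 lie among the Smarcb1-labelled values. Alas2 tracked Hbb-b2 (r = 0.98) and Hbb-b1 (r = 0.94) across the 9 libraries, and Hba-a1 tracked Hbb-b1 (r = 0.95), all of which share library and depth. With the group means removed, the r of Hba-a1 with Hbb-b1 was 0.94, of Hbb-b1 with Alas2 0.98 and of Hbb-b2 with Alas2 0.99, so these genes also moved together among the libraries of a group.

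**Figure D1:**
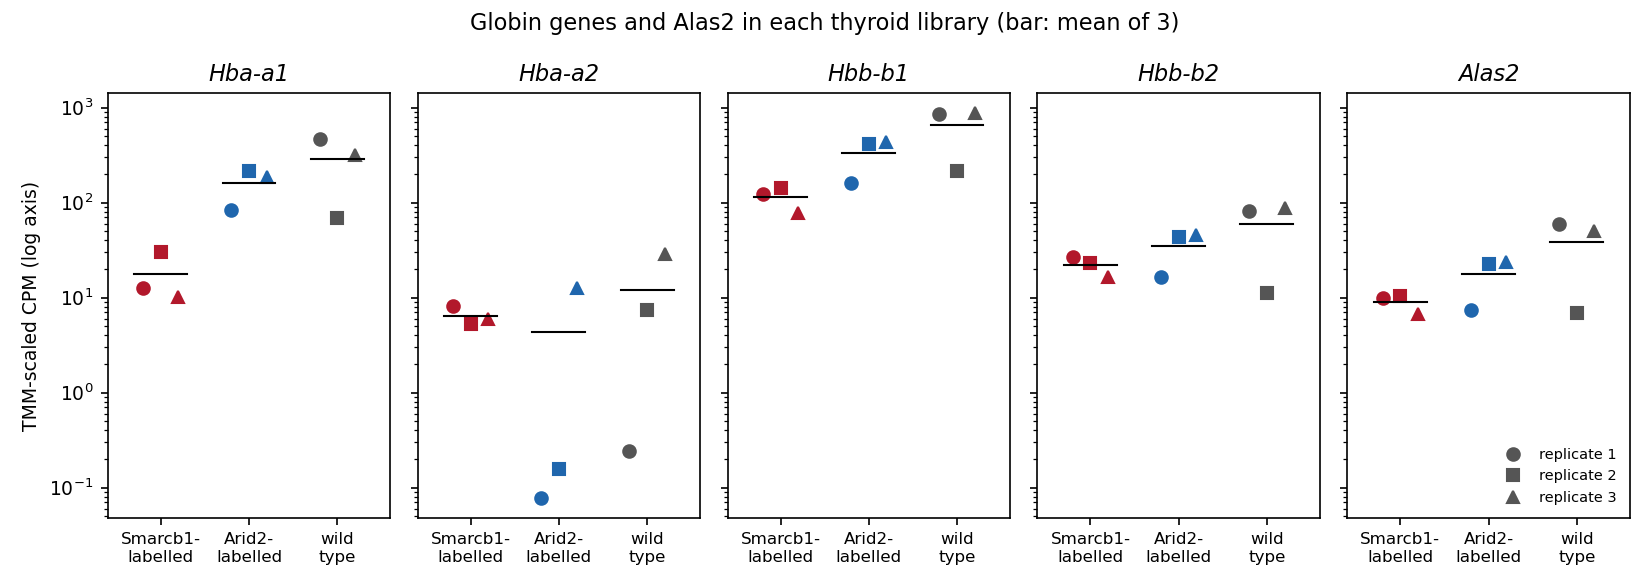
Level of each of the 5 genes in each of the 9 libraries, in TMM-scaled CPM on a log axis, with the libraries grouped by label and the group means marked. Hba-a1 in the Smarcb1-labelled libraries stays between 10.1 and 30.5 CPM, below every other library, and Hba-a2 lies at 0.243 CPM or less in 3 of the others.

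Together the 5 genes held 0.0178%, 0.0227% and 0.0111% of the counts of the Smarcb1-labelled libraries, 0.0271%, 0.0658% and 0.0711% of those of the Arid2-labelled ones and 0.143%, 0.0321% and 0.137% of those of wild type. Wild-type replicate 2 and Arid2-labelled replicate 1 are thus closer to the Smarcb1-labelled libraries than to the rest of their own groups.

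The mix of the genes as counted was compared as well as their amount. This mix depends on how reads were split within each pair, which was not tested. Hbb-b2 made up 17.7%, 14.03% and 17.4% of the beta globin counts in the Smarcb1-labelled libraries, 9.31%, 9.55% and 9.53% in the Arid2-labelled ones and 8.58%, 4.99% and 8.96% in wild type. Each Smarcb1-labelled share lies above all 6 others. The Arid2-labelled shares also lie above all 3 wild-type shares, but by a narrow margin. The lowest Arid2-labelled share, 9.31% in replicate 1, had a counting-error interval of 8.86% to 9.77%. That of the highest wild-type share, 8.96% in replicate 3, was 8.65% to 9.27%, so these intervals overlap. Hba-a2 made up 39.5%, 14.9% and 36.9% of the alpha globin counts in the Smarcb1-labelled libraries, 0.092%, 0.0721% and 6.42% in the Arid2-labelled ones and 0.0515%, 9.66% and 8.31% in wild type. The Smarcb1-labelled shares are again the 3 highest, while the Arid2-labelled and wild-type shares overlap.

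Alpha globin was also low relative to beta globin. For each beta globin count there were 0.137, 0.215 and 0.171 alpha globin counts in the Smarcb1-labelled libraries, 0.477, 0.477 and 0.416 in the Arid2-labelled ones and 0.499, 0.338 and 0.359 in wild type. The means were 0.175 ± 0.0388 in the Smarcb1-labelled group, 0.457 ± 0.0351 in the Arid2-labelled group and 0.399 ± 0.0873 in wild type (SD, n = 3 each), and the Smarcb1-labelled ratios did not overlap either other group. The counts are not per transcript length, so the ratio is compared between libraries and is not a ratio of messenger RNA molecules. For each 100 beta globin counts there were 6.67, 6.30 and 7.13 Alas2 counts in the Smarcb1-labelled libraries, 4.18, 4.98 and 4.91 in the Arid2-labelled ones and 6.26, 3.08 and 5.18 in wild type. The Smarcb1-labelled libraries hold the 3 highest of these values, by a narrow margin over wild-type replicate 1. These shares and ratios carry no test.

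**Figure D2:**
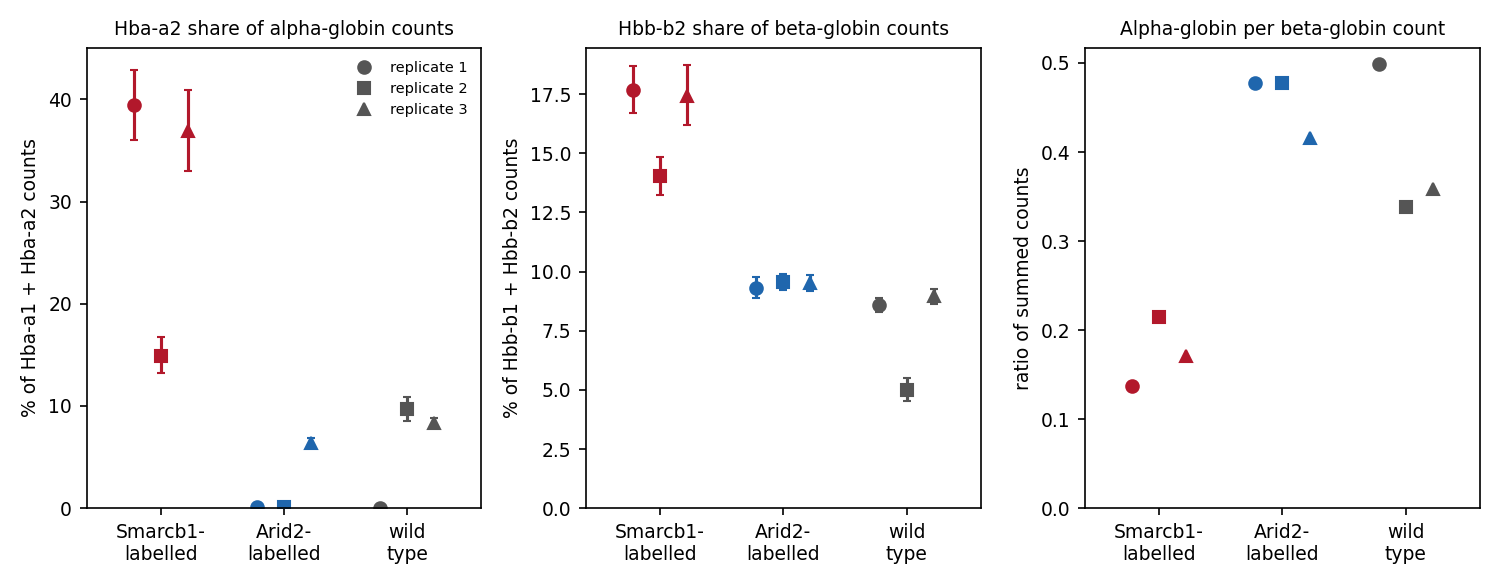
Share of Hba-a2 in the alpha globin counts and of Hbb-b2 in the beta globin counts, in percent, for each of the 9 libraries by group, where bars are exact 95% binomial intervals that cover counting error only. The Smarcb1-labelled libraries hold the highest shares, from 14.9% to 39.5% for Hba-a2 and from 14.03% to 17.7% for Hbb-b2. A further panel, without bars, gives the alpha globin counts for each beta globin count. There the Smarcb1-labelled libraries are the lowest, at 0.137 to 0.215.

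Smarcb1-labelled thyroids had less Hba-a1 and Hbb-b1 than wild type. Hba-a1 averaged 17.7 ± 11.1 CPM in the Smarcb1-labelled libraries and 286.2 ± 203.2 CPM in wild type (SD, n = 3 each). Its log2 fold change was -4.01 with a standard error of 0.74, or 16.1-fold lower (edgeR quasi-likelihood test, adjusted p = 0.0179). Hbb-b1 averaged 114.8 ± 33.8 CPM in the Smarcb1-labelled libraries and 652.5 ± 380.4 CPM in wild type, a log2 fold change of -2.51 with a standard error of 0.56, or 5.68-fold lower (edgeR adjusted p = 0.0315). For both, all 3 Smarcb1-labelled libraries were below all 3 of wild type, with an exact two-sided permutation p of 0.1, the smallest that 3 libraries against 3 can give. So 2 of the 5 genes were lower, where 5.74% of all 17079 genes tested were called lower and 7.90% were called in either direction. The share of all tested genes with all 3 Smarcb1-labelled libraries below all 3 of wild type was 16.7%.

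The other 3 genes did not pass the test. Alas2 averaged 9.07 ± 2.08 CPM in the Smarcb1-labelled libraries and 38.7 ± 27.9 CPM in wild type, a log2 fold change of -2.09 with a standard error of 0.70 (edgeR adjusted p = 0.0927). Hbb-b2 averaged 22.1 ± 5.2 CPM in the Smarcb1-labelled libraries and 59.7 ± 42.0 CPM in wild type, with a log2 fold change of -1.43 ± 0.65 (SE) and an edgeR adjusted p of 0.185. Hba-a2 had a log2 fold change of -0.91 ± 1.66 (SE), with an edgeR adjusted p of 0.748. The median over the 5 log2 fold changes is -2.09, against 0.05 for all genes tested. Summed alpha globin averaged 24.2 ± 10.3 CPM in the Smarcb1-labelled libraries and 298.4 ± 202.3 CPM in wild type, 12.3-fold lower, without a test. Summed beta globin averaged 136.9 ± 38.2 CPM in the Smarcb1-labelled libraries and 712.2 ± 422.4 CPM in wild type, 5.20-fold lower, also without a test.

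Both calls rest on few libraries. The Hba-a1 call was lost without Smarcb1-labelled replicate 1 (adjusted p = 0.068), Smarcb1-labelled replicate 3 (0.072) or wild-type replicate 1 (0.0574), with log2 fold changes from -4.66 to -3.45 over the 9 fits that leave 1 library out. The Hbb-b1 call was lost in 5 of these 9 fits, without Smarcb1-labelled replicate 1 (0.0943) or 3 (0.112), Arid2-labelled replicate 2 (0.0555) or wild-type replicate 1 (0.103) or 3 (0.0876), and with log2 fold changes from -2.93 to -2.23. Without wild-type replicate 2, which had the least globin of its group, 4 of the 5 genes were called lower. Hbb-b2 (-1.93, edgeR adjusted p = 0.0449) and Alas2 (-2.59, 0.0292) passed too. That fit called 372 genes lower over all genes, against 981 with all 9 libraries.

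**Figure D3:**
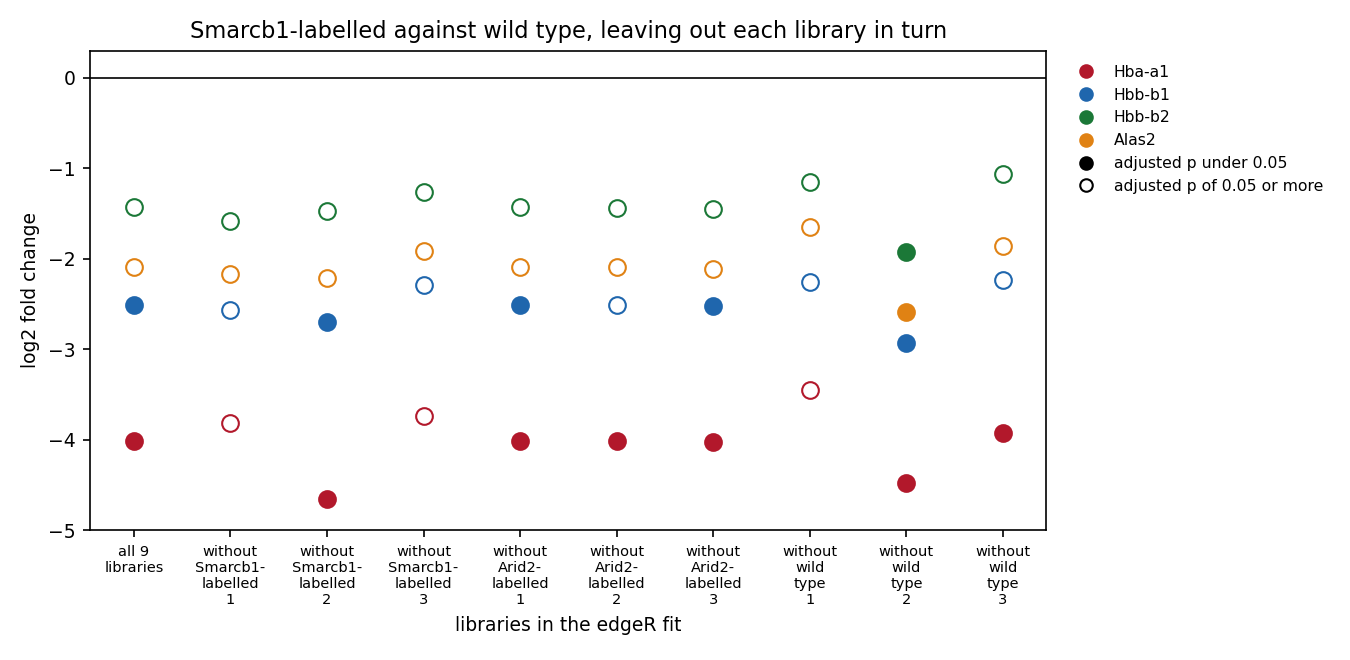
Log2 fold change of Hba-a1, Hbb-b1, Hbb-b2 and Alas2 in Smarcb1-labelled against wild-type thyroids, with all 9 libraries and with each library left out in turn, on a log2 axis, where filled points are called at an adjusted p under 0.05. Every fit puts Hba-a1 (-4.66 to -3.45) and Hbb-b1 (-2.93 to -2.23) below 0 against wild type, and the calls come and go with the library left out.

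In Arid2-labelled thyroids, 0 of the 5 genes were called against wild type by edgeR, where 0.556% of all genes tested were called in either direction. None of the 5 was called by DESeq2, and none had an unadjusted p under 0.05. The log2 fold changes were -0.82 ± 0.66 for Hba-a1, -1.50 ± 1.68 for Hba-a2, -0.97 ± 0.54 for Hbb-b1, -0.77 ± 0.64 for Hbb-b2 and -1.12 ± 0.68 for Alas2 (SE, n = 3 each), and edgeR adjusted p-values ran from 0.443 to 0.731. Hba-a1 averaged 162.1 ± 69.7 CPM in the Arid2-labelled libraries and 286.2 ± 203.2 CPM in wild type, and Hbb-b1 averaged 334.1 ± 151.7 CPM in the Arid2-labelled libraries and 652.5 ± 380.4 CPM in wild type. The groups overlap for all 5 genes, while 12.6% of all genes tested had all 3 Arid2-labelled libraries below all 3 of wild type. All 5 estimates are negative, and none passed the test at the spread of these libraries.

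Against the Arid2-labelled thyroids, Hba-a1 was lower in the Smarcb1-labelled ones. It averaged 17.7 ± 11.1 CPM in the Smarcb1-labelled libraries and 162.1 ± 69.7 CPM in the Arid2-labelled ones, a log2 fold change of -3.19 with a standard error of 0.72, or 9.15-fold lower (edgeR adjusted p = 0.0228). It was the only one of the 5 genes called, where 9.32% of all genes tested were called lower and 16.3% were called in either direction. Hbb-b1 averaged 114.8 ± 33.8 CPM in the Smarcb1-labelled libraries and 334.1 ± 151.7 CPM in the Arid2-labelled ones, a log2 fold change of -1.54 with a standard error of 0.54 (edgeR adjusted p = 0.0793). For Hba-a1 and Hbb-b1 all 3 Smarcb1-labelled libraries were below all 3 Arid2-labelled ones, which held for 20.5% of all genes tested. Alas2 had a log2 fold change of -0.97 ± 0.68, Hbb-b2 of -0.67 ± 0.64 and Hba-a2 of 0.58 ± 1.66 (SE), with edgeR adjusted p-values of 0.33, 0.481 and 0.821. The Hba-a1 call was lost when Smarcb1-labelled replicate 1 or 3 or Arid2-labelled replicate 2 or 3 was left out, with edgeR adjusted p from 0.0624 to 0.0869. Hbb-b1 passed without wild-type replicate 2 (-1.54, edgeR adjusted p = 0.0396). It also passed without both libraries that held Rag1 (-2.08, 0.0436). The 3 comparisons share libraries and are not independent of each other.

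**Figure D4:**
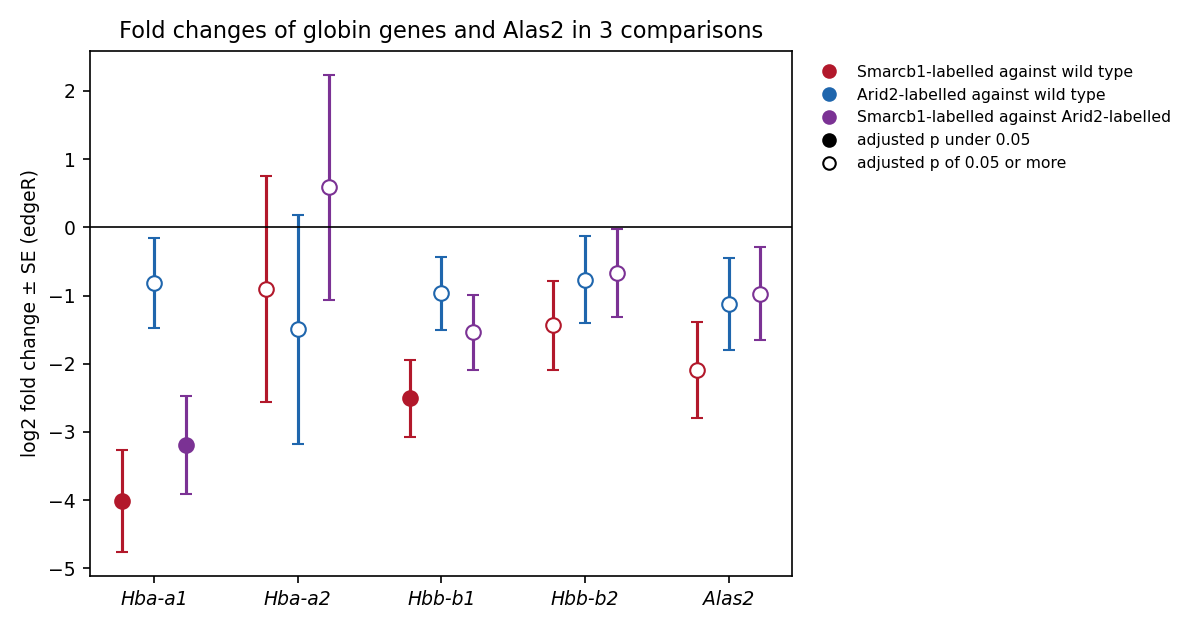
Log2 fold change of the 5 genes in the 3 comparisons, with standard errors as bars, on a log2 axis where 0 means no difference and filled points are called at an adjusted p under 0.05. Hba-a1 against wild type (-4.01) and against the Arid2-labelled libraries (-3.19) and Hbb-b1 against wild type (-2.51) are the 3 points called, all in the Smarcb1-labelled group.

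Parathyroid marker levels were highest in the Smarcb1-labelled libraries, which had the least Hba-a1 and Hbb-b1. The mean log2 level of Pth, Gcm2 and Casr, which mark parathyroid cells, had a Pearson r of -0.84 with the mean log2 level of the 5 genes over the 9 libraries and of -0.86 with the group means removed. With Hba-a2 left out of the mean, a choice made after its values were seen, these were -0.74 and -0.59. Summed over those 3 genes the level was 6092 to 16990 CPM in the Smarcb1-labelled libraries, 10.6 to 1581 CPM in the Arid2-labelled ones and 8.16 to 4320 CPM in wild type. With the parathyroid level as a covariate, Hba-a1 had a log2 fold change of -3.51 against wild type (edgeR adjusted p = 0.0942) and Hbb-b1 of -1.78 (0.185), so neither was called. A share of parathyroid tissue and the Smarcb1 label largely go together and cannot be told apart here, and their part in the globin difference was not tested.

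Genes that mark red cell precursors were close to the floor. Gata1 had 0 to 4 counts per library and 10 in all, and Rhag and Trim58, both of the red cell lineage, had at most 3 counts in any library. The beta-type genes Hbb-bh0, Hbb-bh1 and Hbb-bh2 had 0 counts in all 9 libraries. As an upper limit alone, at 95%, 0 counts allow up to 3 expected counts in each. The embryonic beta-type gene Hbb-y had 1 count in all and the embryonic alpha-type gene Hba-x had 2. Slc4a1, the anion exchanger of the red cell membrane, and Klf1 were low but counted, and are named after their values were seen. Slc4a1 had 8, 13 and 7 counts in the Smarcb1-labelled libraries, 16, 68 and 41 in the Arid2-labelled ones and 33, 7 and 32 in wild type. This is the order of Alas2 within wild type, with replicate 2 low, and Slc4a1 was not called against wild type (log2 fold change -1.62 ± 0.75 SE, edgeR adjusted p = 0.188). Of 14 tested red cell membrane and enzyme genes, Slc4a1 among them, 8 had a negative log2 fold change in that comparison and 6 a positive one.

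In the Smarcb1-labelled thyroids against wild type, 5.74% of all genes tested were called lower. Of 13 tested erythroid regulators, 1 fell there and 0 rose. That gene was Epor, the receptor for the red cell growth hormone erythropoietin. It averaged 0.686 ± 0.0531 CPM in the Smarcb1-labelled libraries and 1.997 ± 0.201 CPM in wild type, a log2 fold change of -1.54 with a standard error of 0.23 (edgeR adjusted p = 0.00861). The call was lost only with the parathyroid covariate (0.053), of 18 alternative settings. Zfpm1, a Gata1 cofactor, had a log2 fold change of -0.82 (edgeR adjusted p = 0.0699) and Tal1, another blood transcription factor, 0.73 (0.0958). The median over the list was 0.06, beside 0.05 for all genes tested. None of the list passed in the Arid2-labelled comparison. Against the Arid2-labelled thyroids 4 fell, Klf1, Nfe2, Zfpm1 and Epor, and 0 rose, where 9.32% of all genes tested were called lower. These calls depend on the settings. With the trend on GC content removed, Zfpm1 turned to 0.24 there and was not called, and its call was lost in 12 other settings of 18. Klf1 was not called in 16 of 17 settings. Epor was not called in 3 of 18, among them the GC setting (-0.74, edgeR adjusted p = 0.0655), and Nfe2 in 2 of 18. Epor and Nfe2 both lost the call with the parathyroid covariate and without Arid2-labelled replicate 3.

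The enzymes and carriers of haem synthesis other than Alas2 were not called against wild type. All 11 were tested, 0 rose and 0 fell in either labelled group, and the median log2 fold change in the Smarcb1-labelled comparison was -0.04. Slc25a38, a mitochondrial carrier for glycine, had a log2 fold change of -0.36 (edgeR adjusted p = 0.0817), and Slc25a37, one for iron, 0.40 (0.152). Against the Arid2-labelled thyroids Cpox, a late enzyme, rose by 0.53 and Slc25a38 fell by 0.41 on the log2 scale, and both calls were lost with the GC trend removed. Of all genes tested, 6.95% were called higher and 9.32% lower there.

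Of the 11 tested genes of haem breakdown and scavenging, 2 fell in the Smarcb1-labelled thyroids against wild type and 0 rose. Of all genes tested, 5.74% were called lower in this comparison. Blvrb, biliverdin reductase B, averaged 44.9 ± 8.0 CPM in the Smarcb1-labelled libraries and 94.9 ± 9.1 CPM in wild type (log2 fold change -1.08 ± 0.15 SE, edgeR adjusted p = 0.00724). Its values were 51.5, 47.2 and 36.0 CPM in the Smarcb1-labelled libraries and 88.7, 105.3 and 90.5 CPM in wild type, with no overlap, and it was called in all 18 alternative settings. Ftl1, the light chain of the iron store ferritin, had a log2 fold change of -0.72 (edgeR adjusted p = 0.0224), which was -0.30 (0.15) with the GC trend removed. None passed in the Arid2-labelled comparison, and Blvrb fell by 0.87 against the Arid2-labelled thyroids (edgeR adjusted p = 0.0119), as 1 of 11 genes. There 9.32% of all genes tested were called lower. The haem breakdown list had an r of 0.84 with the mean of the 5 genes across the 9 libraries, and of 0.90 with Hba-a2 left out. The list of red cell membrane and enzyme genes had similar values, 0.80 and 0.89.

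Of the 19 listed red cell membrane and enzyme genes 14 were tested. Of these, 1 fell and 0 rose in the Smarcb1-labelled comparison, where 5.74% of all genes tested were called lower. It was Slc2a1, the glucose transporter, at a log2 fold change of -0.58 (edgeR adjusted p = 0.0367). The call was lost in 10 of 18 alternative settings. Bpgm, which makes the bisphosphoglycerate of red cells, had a log2 fold change of -0.42 (edgeR adjusted p = 0.184). None passed in the Arid2-labelled comparison. Against the Arid2-labelled thyroids 1 fell, where 9.32% of all genes tested were called lower. That was Epb4.2, a membrane skeleton protein, at -2.39 (edgeR adjusted p = 0.0328), lost in 10 of 18 settings. Epb4.2 averaged 0.128 CPM in wild type. Against wild type its log2 fold change was 3.42 in the Arid2-labelled thyroids (edgeR adjusted p = 0.068) and 1.03 in the Smarcb1-labelled ones (0.371). Of the globin genes outside blood, Mb, Ngb and Cygb were tested and none was called in any of the 3 comparisons.

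Other blood cell lists held no gene called against wild type. Of 6 tested platelet genes, 0 rose and 0 fell against wild type in either labelled group. Pf4, a platelet chemokine, averaged 4.65 ± 1.16 CPM in the Smarcb1-labelled libraries and 8.17 ± 2.03 CPM in wild type (log2 fold change -0.81, edgeR adjusted p = 0.0814), and Itga2b, a platelet integrin, fell by 0.78 against the Arid2-labelled thyroids as 1 of the 6. In that comparison 9.32% of all genes tested were called lower. The Itga2b call was lost in 7 of 18 settings, with -0.33 (edgeR adjusted p = 0.122) once the GC trend was removed. Summed platelet genes were at 16.2 to 18.8 CPM in the Smarcb1-labelled libraries, 23.2 to 31.7 CPM in the Arid2-labelled ones and 22.8 to 26.5 CPM in wild type. Of 7 neutrophil, 7 B cell, 8 T cell and NK and 7 monocyte genes tested, none was called against wild type in either labelled group. Against the Arid2-labelled thyroids, S100a9, a calprotectin subunit of neutrophils, rose by 1.85 and Ccr2, a monocyte chemokine receptor, by 1.13, where 6.95% of all genes tested were called higher. Both of these calls were lost without Smarcb1-labelled replicate 1, among other settings. Examples from these lists in the Smarcb1-labelled comparison with wild type were S100a8 of neutrophils at 1.96 (edgeR adjusted p = 0.112), Cd8a of T cells at 5.66 (0.271) and Csf1r of monocytes at -0.53 (0.113), as log2 fold changes. Cd8a was highest by far in the libraries that held Rag1.

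Endothelial genes mark the vessel wall. Of 12 tested, 2 rose and 0 fell in the Smarcb1-labelled thyroids against wild type, where 2.15% of all genes tested were called higher. Emcn, endomucin, averaged 106.6 ± 5.7 CPM in the Smarcb1-labelled libraries and 71.2 ± 8.0 CPM in wild type (log2 fold change 0.58, edgeR adjusted p = 0.0266), and Tek, an angiopoietin receptor, had a log2 fold change of 0.61 (0.0463). With the GC trend removed neither was called. Emcn also rose in the Arid2-labelled thyroids, by 0.83 (edgeR adjusted p = 0.0269), as the 1 of 12, where 0.234% of all genes tested were called higher. With the GC trend removed its log2 fold change was 0.92, with an edgeR adjusted p of 0.0506. Summed endothelial genes were at 578.4 to 1007 CPM in the Smarcb1-labelled libraries, 1018 to 1221 CPM in the Arid2-labelled ones and 592.3 to 812.5 CPM in wild type. Among the tissue lists, 1 of 8 thyroid genes fell in the Smarcb1-labelled thyroids against wild type, the transcription factor gene Foxe1 (-2.19, edgeR adjusted p = 0.00103), and 2 of the 8, Foxe1 among them, fell against the Arid2-labelled ones. Over all genes tested, 5.74% were called lower in the first of these comparisons and 9.32% in the second. None of 3 parathyroid genes and 1 thymus gene tested was called in any of the 3 comparisons.

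**Figure D5:**
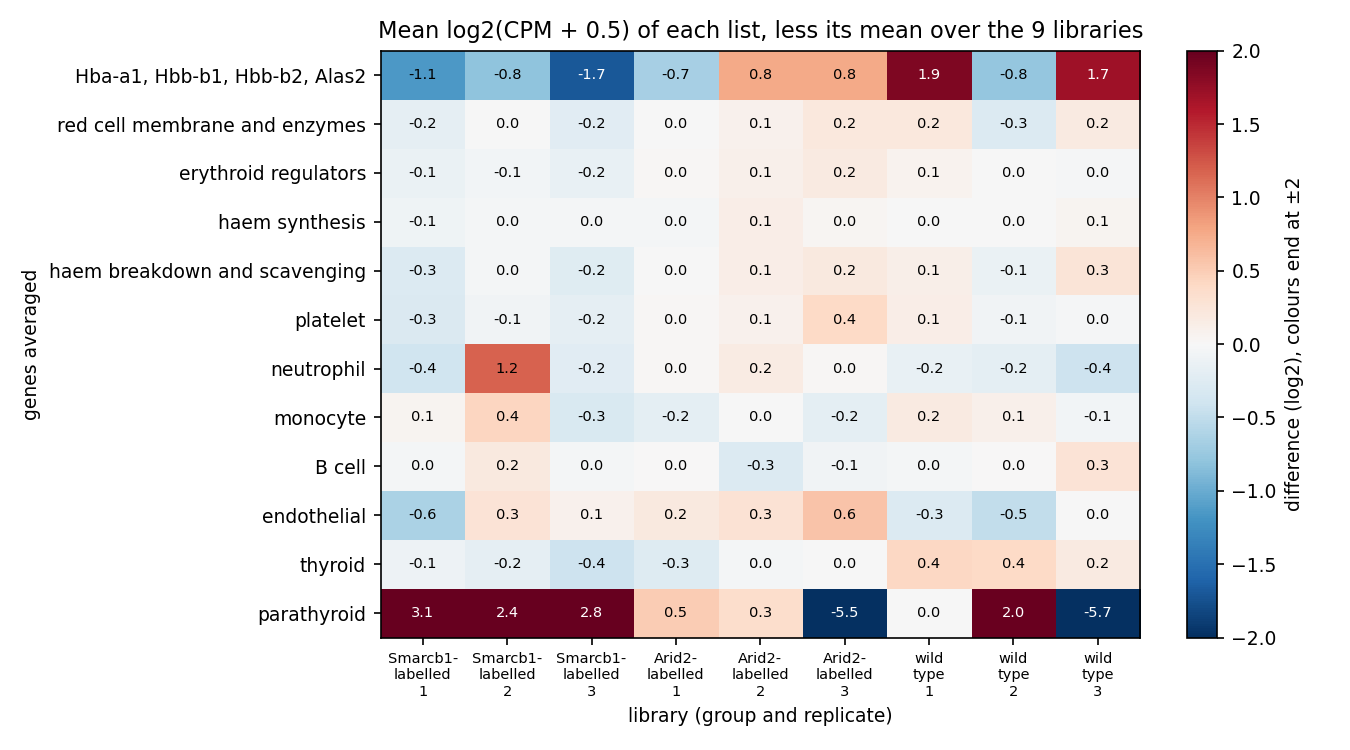
Mean log2 level of Hba-a1, Hbb-b1, Hbb-b2 and Alas2 (top row) and of marker lists in each library, shown as the difference from the mean over the 9 libraries, with colours that end at 2 log2 units either way. The top row runs from -1.70 in Smarcb1-labelled replicate 3 to 1.87 in wild-type replicate 1, with wild-type replicate 2 at -0.78 and Arid2-labelled replicate 1 at -0.66.

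Among 14379 other genes whose log2 CPM averaged 0 or more, the 8 most like the mean log2 level of the 5 genes over the 9 libraries included Ube2l6, Bpgm, Amacr, Fcrls, Pygl, Rarres2 and Reep5, with Pearson r from 0.918 to 0.932. Bpgm stands in the list of red cell membrane and enzyme genes. When Hba-a2 was left out of the mean, a choice made after its values were seen, the 8 were Slc17a9, Reep5, Sirt4, Pf4, Agap1, Gm11963, Fam109a and Rarres2, with r from 0.932 to 0.978, so 2 of the 8 were shared. The correlations describe 9 libraries that share their depth and tissue mix, and no p is given.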

How the data were processed

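The authors deposited raw read counts per gene for 9 libraries; they are whole numbers and were not normalized. Per the labels' protocols, RNA was extracted with TRIzol and libraries were made with an Illumina TruSeq kit; strand use in counting is not stated. Tools listed in the submitters' processing notes, without roles, are STAR 2.4, HTSeq 0.6.1 and DESeq2, with build mm9. Sequences come from GRCm38, and none of their coordinates was joined to the counts.

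Groups came from the genotype labels. The quasi-likelihood F test of edgeR 4.0.16 was run with TMM and filterByExpr in R 4.3.3 on all 9 libraries as 3 group means, with 6 residual degrees of freedom and Benjamini-Hochberg adjustment over all 17079 genes tested, called under 0.05. A log2 CPM used for correlation or permutation adds 0.5. The test was checked on simulated data in which all genes had the same spread. That check does not cover genes as variable between libraries as the globin genes. The labels do not say that libraries came from separate animals, so p-values measure the spread between libraries, which may be technical. No library of a group is a copy of another (chi-square of their counts, divided by its degrees of freedom, 47.6 to 122.5). Intervals cover counting error of reads only. They may be too narrow even for that, since PCR copies are not separate molecules.

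The members, lists, tests and the rule for named genes were chosen with earlier results of these data known. The rule names the 5 members, up to 3 genes of each of the 14 lists by smallest p in the Smarcb1-labelled against wild-type comparison, the 8 most alike genes and the genes that show what a library holds; other genes called in a list are named after their values were seen; a few of the genes it covers are not reported here. Of 148 listed genes 145 were found. Alternatives were DESeq2 1.42.0 (size factors, Wald test), library totals, other filters, only the 6 libraries compared, a GC trend, a parathyroid covariate, no libraries with thymus markers, and leaving out each library.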

Additional observations from a re-analysis of the deposited data

How the results depend on the processing

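No paired analysis was possible because the labels give the groups no shared replicate numbers. Over the 5 genes, 239 of 264 alternative values kept their direction and their side of the threshold, 16 lost a call, 5 gained one and 4 turned sign. The causes were not tested. In the Smarcb1-labelled against wild-type comparison the count of 2 genes called became 1 with only the 6 libraries compared (Hbb-b1 adjusted p = 0.0524), 0 with the parathyroid covariate and 0 to 4 with 1 library left out. The count of 1 against the Arid2-labelled libraries became 0 with the parathyroid covariate (Hba-a1 -2.70, adjusted p = 0.141), 2 without the libraries with thymus markers and 0 to 2 with 1 library left out. No gene was called for Arid2-labelled against wild type with 1 library left out (0 to 0). DESeq2's Wald test called Alas2 as well as Hba-a1 and Hbb-b1 against wild type (-2.10, adjusted p = 0.0457). Values that turned sign were Hba-a2 against wild type in the Smarcb1-labelled group, 1.83 with the parathyroid covariate and -1.49 to 0.77 with 1 library left out (above 0 without wild-type replicate 3), Hba-a2 in the Arid2-labelled group, -6.72 to 0.19 with 1 left out (above 0 without wild-type replicate 3), Hbb-b2 against the Arid2-labelled libraries, 0.17 with the covariate, and Zfpm1 there, 0.24 with the GC trend removed; only Zfpm1 had been called. The GC check is void for the 5 genes as a set, since only 3 have a GC value.

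Counts over all genes moved more. For Smarcb1-labelled against wild type, 1349 became 2761 by DESeq2's Wald test, 486 with only the 6 libraries, 487 with the GC trend removed, 197 with the covariate, 2166 without the thymus libraries and 344 to 2538 with 1 library left out. For Arid2-labelled against wild type, 95 became 882, 201 and 209 under the first 3 of these, 56 without the thymus libraries and 5 to 167 with 1 left out. For Smarcb1-labelled against Arid2-labelled, 2779 became 4337, 1348, 1301 and, with the covariate, 145, and 395 to 4411 with 1 left out. Depth limits the precursor genes, such as Gata1 with at most 4 counts in a library, while the 3 libraries with 10 counts of Hba-a2 or fewer include the deepest.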
